A study of Mus musculus with 11 samples.

Results

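The 10 genes described here encode the elastic fiber and the enzymes that cross-link it: Eln, Fbn1, Fbln5, Emilin1, Ltbp2, Ltbp4, Lox, Loxl1, Loxl2 and Mfap5. They were chosen by gene name, and rows of the same name were summed, which gave 10 of the 24515 genes of the table from 14 of its 36285 transcript rows. All 10 passed the filter on low counts. RNA was sequenced in bulk from 6 tumors of the lung and from the normal lungs beside them, 5 in number, of 5 Gprc5a-/- mice, to compare each tumor with the normal lung of the same mouse. All mice lacked Gprc5a, a receptor of the lung epithelium, and all had received the tobacco carcinogen NNK (50 mg per kg into the peritoneum, 3 times a week for 8 weeks), so the normal lungs shared the deletion and the exposure with the tumors. The 3 ADN tumors came from mice m335, m368 and m350, taken 4, 6 and 7 months after NNK. The 3 ADC tumors came from mice m335, m372 and m378, taken 4, 7 and 7 months after NNK, and the 5 normal lungs came from these same 5 mice. The tags ADN and ADC are used as given, since the labels do not spell them out, and mouse m335 gave both an ADN and an ADC tumor. Time after NNK cannot be told apart from the mouse.

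Elastic fibers let the lung recoil after each breath. Cells secrete tropoelastin, the product of Eln, onto a scaffold of microfibrils built from fibrillins such as Fbn1, and fibulins and latent TGF-beta binding proteins guide the deposits to that scaffold. Lysyl oxidases, which need copper, then cross-link the elastin into a polymer that is barely renewed in the adult, and mice without Fbln5, Loxl1 or the short form of Ltbp4 have enlarged air spaces.

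Total counts ran from 19938822 to 46987587 per library, and the ribosomal RNA precursor Rn45s held 7.29% to 19.2% of them. Gprc5a had 0 to 19 counts in tumors and 2 to 18 counts in normal lungs. Markers of alveolar type 2 cells were present in every library, with a summed level of 48370 to 146500 CPM in tumors and 52440 to 67970 CPM in normal lungs. Levels are in CPM, the usual unit of counts scaled to a common library size, here with TMM factors. A pair of libraries from mouse m335 stood apart. For tumors against normal lungs, calls of the chosen elastic fiber genes that rest on either of them are given without it too. Calls in the further gene lists and among the cell and tissue markers are given only with both libraries included. Whether those calls rest on either library was not tested. The ADC tumor of that mouse had the 48370 CPM of alveolar type 2 markers, against 117800 to 146500 CPM in the other tumors. The normal lung of that mouse had 666.7 CPM of skeletal muscle markers, against 7.89 to 117.7 CPM in the other normal lungs.

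The sequence just before the start of transcription is shown for both starts of Ltbp4, for Ltbp2, its relative in the same family, for Emilin1 and for Fbn1. These are genes that fell, were higher or stayed near their normal level in tumors. The sequences are from RefSeq (GRCm38.p6), whose table matched 5 of the 10 genes, and none is shown for Fbln5, Eln, Lox, Loxl1, Loxl2 and Mfap5. Each line holds the 250 bases upstream of the start, 5′ to 3′ on the strand of the gene, and ends at the base before the first transcribed one. Capitals mark the GC box GGGCGG and the SMAD motif CAGAC, searched on both strands with overlapping matches counted.
Ltbp4 long start, chr7:27337613-27337862, minus strand: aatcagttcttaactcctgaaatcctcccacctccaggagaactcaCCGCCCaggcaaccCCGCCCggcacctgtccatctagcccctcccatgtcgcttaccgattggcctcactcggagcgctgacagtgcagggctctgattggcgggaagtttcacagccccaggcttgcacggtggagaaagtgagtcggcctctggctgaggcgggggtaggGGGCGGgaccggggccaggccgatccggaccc
Ltbp4 short start, chr7:27333649-27333898, minus strand: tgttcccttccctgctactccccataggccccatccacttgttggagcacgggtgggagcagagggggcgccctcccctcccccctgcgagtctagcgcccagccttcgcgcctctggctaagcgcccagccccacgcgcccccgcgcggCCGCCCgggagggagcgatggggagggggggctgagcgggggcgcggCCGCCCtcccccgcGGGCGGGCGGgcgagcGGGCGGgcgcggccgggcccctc
Ltbp2, chr12:84876492-84876741, minus strand: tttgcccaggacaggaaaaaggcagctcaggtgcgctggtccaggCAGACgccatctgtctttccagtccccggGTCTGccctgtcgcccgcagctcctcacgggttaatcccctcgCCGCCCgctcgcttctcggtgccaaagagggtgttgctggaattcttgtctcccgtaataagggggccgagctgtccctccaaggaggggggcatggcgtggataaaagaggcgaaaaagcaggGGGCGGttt
Emilin1, chr5:30913536-30913785, plus strand: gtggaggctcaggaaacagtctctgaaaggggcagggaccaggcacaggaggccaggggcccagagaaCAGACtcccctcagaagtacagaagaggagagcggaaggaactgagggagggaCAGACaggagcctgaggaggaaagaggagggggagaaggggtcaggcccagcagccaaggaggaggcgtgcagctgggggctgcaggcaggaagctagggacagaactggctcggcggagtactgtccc
Fbn1, chr2:125506439-125506688, minus strand: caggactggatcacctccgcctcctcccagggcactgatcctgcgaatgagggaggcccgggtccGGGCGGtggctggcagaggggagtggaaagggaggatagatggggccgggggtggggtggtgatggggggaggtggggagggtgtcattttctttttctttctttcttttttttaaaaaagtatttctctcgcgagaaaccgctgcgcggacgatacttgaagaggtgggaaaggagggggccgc

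GC boxes, letters read by SP-family factors, numbered 3 before the long start of Ltbp4, 5 before its short start, 2 before Ltbp2, 1 before Fbn1 and 0 before Emilin1. The motif CAGAC, read by SMAD proteins, the carriers of TGF-beta signals, was found 2 times before Ltbp2, 2 times before Emilin1 and 0 times before the starts of Ltbp4 and Fbn1. Neither is rare, since 32.7% of 32851 promoter windows of the same length held GGGCGG and 42.2% held CAGAC. The AP-1 site TGANTCA, the CArG box and TATAAA, held by 6.75%, 1.47% and 12.4% of those windows, were in none of the 5 windows shown. The start of Ltbp2 in RefSeq lies 4 bases inside the deposited one.

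In tumors the cross-linking enzymes Lox and Loxl1 and the assembly genes Ltbp4 and Emilin1 fell, and the microfibril gene Mfap5 rose. That is 5 of the 10 genes, 1 higher and 4 lower, at an adjusted p under 0.05 (quasi-likelihood test of edgeR, mouse as replicate block). Over all 15175 genes tested, 11.6% passed, 3.68% higher and 7.91% lower. The median log2 fold change of the 10 genes was -0.52, beside -0.03 over all genes tested. In 3 of the 10 genes, Ltbp4, Lox and Loxl1, no tumor reached the level of any normal lung, a separation in either direction seen in 11.5% of all genes (7.92% with the tumors lower). Eln and Ltbp2 had a higher mean in tumors, and Fbln5 a lower one, without passing the threshold, and Fbn1 and Loxl2 had nearly the same mean in both tissues. DESeq2 called 8 of the 10, the same 5 with Eln, Ltbp2 and Fbln5 (adjusted p = 0.00166, 0.00357 and 0.00588). It also called more of all 15175 genes, 1287 higher and 1999 lower, beside 558 higher and 1201 lower by edgeR. In bulk RNA, fewer cells of a type and less RNA per cell cannot be told apart.

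**Figure D1:**
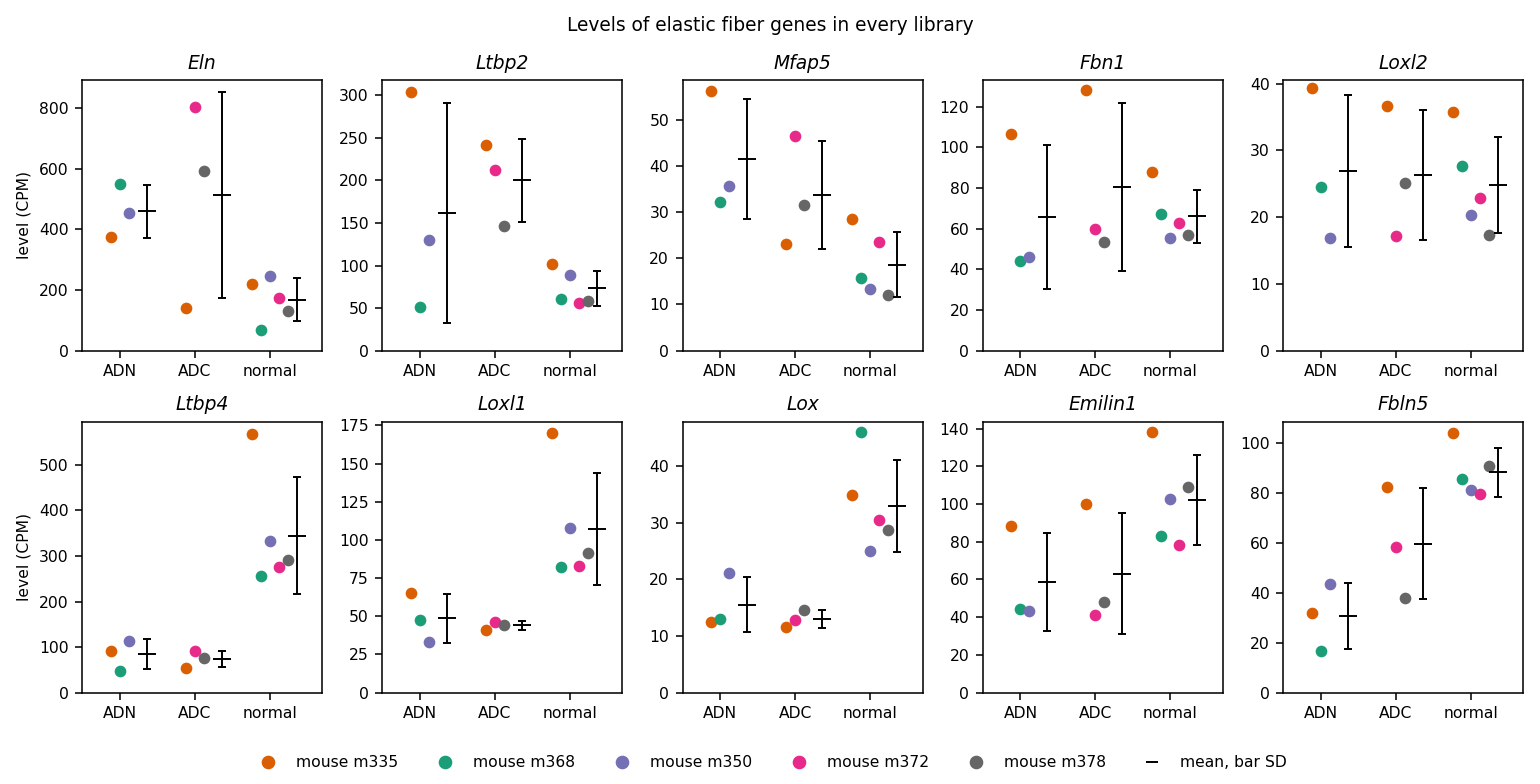
Level of each of the 10 genes (y axis, CPM on a linear axis from 0) in ADN tumors, ADC tumors and normal lungs (x axis), with 1 point per library colored by mouse and the mean with its SD beside each group. Ltbp4, Loxl1 and Lox in all 6 tumors lie below all 5 normal lungs, while Fbn1 and Loxl2 overlap throughout.

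Eln (chromosome 5, 134702595 to 134747323 on GRCm38, minus strand, 37 exons) encodes tropoelastin, the elastic core of the fiber. It had 375.3, 550.7 and 453.0 CPM in the ADN tumors of mice m335, m368 and m350, and 141.1, 804.7 and 593.4 CPM in the ADC tumors of mice m335, m372 and m378. The normal lungs of mice m335, m368, m350, m372 and m378 had 219.7, 68.1, 244.7, 173.7 and 131.4 CPM. Thus 5 tumors stood above every normal lung. The remaining tumor, the ADC tumor of mouse m335, stood below its own normal lung. The mean was 486.4 ± 223.4 CPM in tumors (SD, n = 6) and 167.5 ± 70.6 CPM in normal lungs (SD, n = 5). The fitted log2 fold change was 1.56 ± 0.46 (SE) with an adjusted p of 0.0618 by edgeR, so Eln did not pass. Its 95% interval ran from 0.52 to 2.60. Of 18 alternative processings or sets of libraries, 6 put Eln under the threshold, and its adjusted p ran up to 0.186 by edgeR. With the ADC tumor of mouse m335 left out the change was 1.86 with an adjusted p of 0.00592, and without the replicate block the adjusted p was 0.0264; it was also under the threshold when the normal lung of mouse m335 was removed (0.0322), when that mouse was (0.00689) and with its tumors summed (0.0279).

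Fbn1 (chromosome 2, 125300594 to 125506438, minus strand, 66 exons) encodes fibrillin-1, the main strand of the microfibril. It had 106.7, 44.2 and 46.1 CPM in ADN tumors, 128.1, 59.7 and 53.5 CPM in ADC tumors, and 87.8, 67.4, 55.5, 62.8 and 56.9 CPM in normal lungs, with the mice in the order given for Eln, which is kept from here on. All 3 libraries of mouse m335 were above every other library. The log2 fold change was -0.10 ± 0.18 (SE; 95% interval from -0.51 to 0.32) with an adjusted p of 0.794 by edgeR, and it was 0.14 without the replicate block.

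Mfap5 (chromosome 6, 122513676 to 122529287, plus strand) encodes a small glycoprotein that binds fibrillin microfibrils. Its levels were 56.3, 32.3 and 35.7 CPM in ADN tumors, 23.1, 46.4 and 31.6 CPM in ADC tumors, and 28.5, 15.8, 13.3, 23.5 and 12.1 CPM in normal lungs. In 5 of 6 tumors it exceeded the level of the own normal lung. The exception was again the ADC tumor of mouse m335. The change was 1.01 ± 0.26 on the log2 scale (SE) with an adjusted p of 0.0386 by edgeR. This call rested on the set of libraries. Leaving out any single library other than the ADC tumor of mouse m335 gave an adjusted p from 0.0505 to 0.135, library totals in place of TMM gave 0.0659, and without that ADC tumor it was 0.000723.

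Emilin1 (chromosome 5, 30913786 to 30921273, plus strand) encodes a glycoprotein found where elastin meets the microfibrils. Its levels were 88.6, 44.2 and 43.3 CPM in ADN tumors, 100.2, 41.1 and 48.1 CPM in ADC tumors, and 138.1, 83.1, 102.6, 78.5 and 108.9 CPM in normal lungs. Both tumors of mouse m335 were above the lowest normal lungs, so the groups overlap, yet all 6 tumors were below their own normal lung. The change was -0.94 ± 0.16 on the log2 scale (SE) with an adjusted p of 0.00737 by edgeR, and without the replicate block it was -0.75 with an adjusted p of 0.0891.

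Fbln5 (chromosome 12, 101746565 to 101819119, minus strand, 11 exons) encodes fibulin-5, which tethers tropoelastin and lysyl oxidases to microfibrils. It stood at 31.8, 16.8 and 43.5 CPM in ADN tumors, 82.5, 58.3 and 38.0 CPM in ADC tumors, and 104.1, 85.8, 81.2, 79.8 and 90.9 CPM in normal lungs. The normal lungs varied little, and all 6 tumors were below their own normal lung. The ADC tumor of mouse m335 was the one tumor within the range of the normal lungs. Over all tumors the log2 fold change was -1.14 ± 0.33 (SE) with an adjusted p of 0.0576 by edgeR, which did not pass. Adjusted p-values under the threshold came without that tumor (0.00828), without mouse m335 (0.0369), with its tumors summed (0.0217) and on library totals (0.0349). With DESeq2, 5 of 18 alternatives put Fbln5 under the threshold, and its adjusted p ran up to 0.162 by edgeR.

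Ltbp4 (chromosome 7, 27305141 to 27337612, minus strand) encodes a latent TGF-beta binding protein that also guides elastin assembly. It had 92.3, 48.4 and 112.2 CPM in ADN tumors, 54.7, 91.0 and 76.4 CPM in ADC tumors, and 568.0, 256.1, 332.6, 275.3 and 290.3 CPM in normal lungs. The groups did not overlap. The log2 fold change was -2.16 ± 0.26 (SE) with an adjusted p of 0.00153 by edgeR, or 4.47-fold lower, lower in 6 of 6 tumors. The normal lung of mouse m335 was far above the others, and without it the change was -1.87 with an adjusted p of 0.00784.

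The deposited rows list the forms of Ltbp4 apart. The form from the short start, 30 exons in the matching GENCODE transcript, made up 88.6% ± 2.09 of the Ltbp4 counts in tumors (SD, n = 6) and 88.7% ± 1.16 in normal lungs (SD, n = 5). The form from the long start, 33 exons, made up 11.4% ± 2.09 in tumors and 11.3% ± 1.11 in normal lungs, and the third form stayed at or below 0.127% in every library. The share of each form thus differed by less than its spread between libraries. With such shares the level of each form follows the gene sum, which was lower in tumors. The short-start form had 70.3 ± 21.9 CPM in tumors and 305 ± 112 CPM in normal lungs, and the long-start form 8.87 ± 2.84 CPM in tumors and 39.1 ± 16.6 CPM in normal lungs. The authors' counting divides reads that fit several forms, so these shares are estimates.

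Ltbp2 (chromosome 12, 84783212 to 84876495, minus strand, 35 exons) encodes a family member that sits on microfibrils and does not bind latent TGF-beta. It had 303.9, 50.8 and 130.0 CPM in ADN tumors, 241.0, 212.5 and 146.3 CPM in ADC tumors, and 101.7, 60.2, 88.9, 56.2 and 58.4 CPM in normal lungs. Here the tumor that went the other way was the ADN tumor of mouse m368, and the other 5 tumors were above every normal lung. The log2 fold change was 1.03 ± 0.31 (SE) with an adjusted p of 0.0659 by edgeR, so Ltbp2 did not pass. Its adjusted p was 0.0172 without that ADN tumor, 0.0176 without the normal lung of the same mouse, 0.0346 without the ADC tumor of mouse m335 and 0.0354 without the replicate block. Counting DESeq2, 5 of 18 alternatives put Ltbp2 under the threshold, and its adjusted p ran up to 0.203 by edgeR.

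The 3 lysyl oxidases did not move alike. Lox (chromosome 18, minus strand), the enzyme that gives the family its name, had 12.4, 13.0 and 21.1 CPM in ADN tumors, 11.5, 12.8 and 14.6 CPM in ADC tumors, and 34.9, 46.0, 25.0, 30.4 and 28.7 CPM in normal lungs. All tumors were below all normal lungs, and the ADN tumor of mouse m350 came nearest. The change was -1.20 ± 0.23 on the log2 scale (SE) with an adjusted p of 0.0111 by edgeR. Removing the normal lung of mouse m335 ended this call (-1.07, adjusted p = 0.0586).

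Loxl1 (chromosome 9, 58287723 to 58313212, minus strand), the family member tied most closely to elastin, had 65.0, 47.8 and 32.8 CPM in ADN tumors, 41.0, 46.5 and 44.4 CPM in ADC tumors, and 170.2, 82.2, 107.8, 83.2 and 91.4 CPM in normal lungs. The groups did not overlap, and the ADC tumors lay within a narrow range. The change was -1.25 ± 0.21 on the log2 scale (SE) with an adjusted p of 0.00712 by edgeR. With the normal lung of mouse m335, the highest of the series, left out, it was -1.09 with an adjusted p of 0.0382.

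Loxl2 (chromosome 14, 69609476 to 69695834, plus strand), which acts on collagens of basement membranes, had 39.3, 24.5 and 16.9 CPM in ADN tumors, 36.6, 17.2 and 25.1 CPM in ADC tumors, and 35.7, 27.7, 20.3, 22.9 and 17.3 CPM in normal lungs. The groups overlapped throughout, with 3 tumors above and 3 below their own normal lung. The change was -0.04 ± 0.17 on the log2 scale (SE; 95% interval from -0.44 to 0.36) with an adjusted p of 0.921 by edgeR, and it was 0.10 without the replicate block. Scaling by library totals instead of TMM set the median of all genes at -0.22 and not -0.03, and 5 of the 10 genes then passed, all lower, with Fbln5 gained and Mfap5 lost. Over all genes 359 were then called higher and 1714 lower, in place of 558 higher and 1201 lower.

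**Figure D2:**
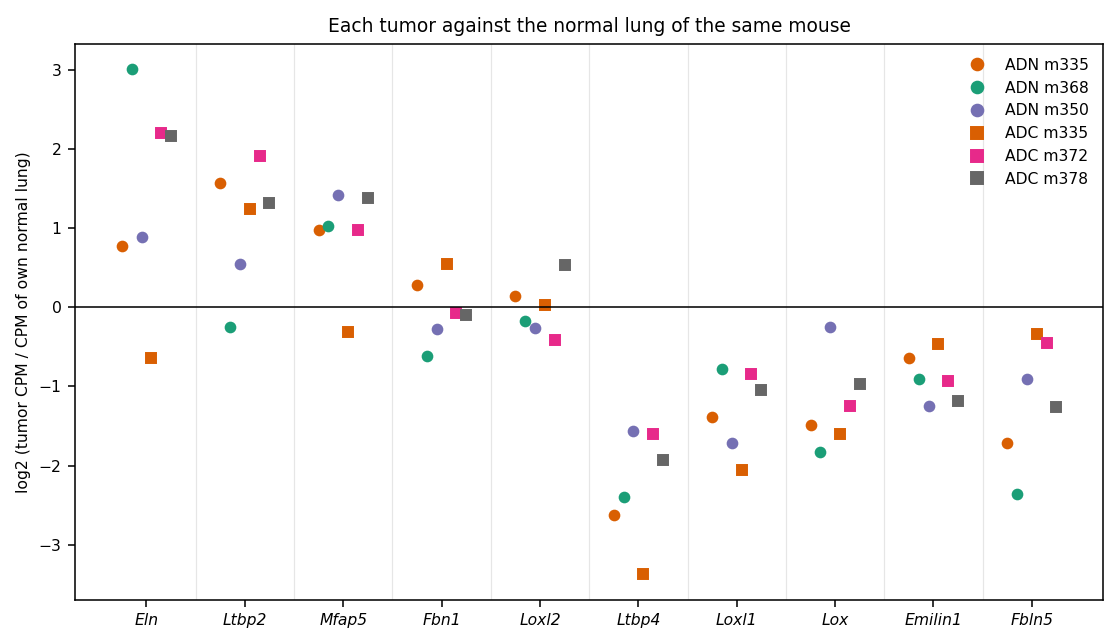
Log2 ratio of each tumor's CPM to that of the normal lung of the same mouse (y axis) for the 10 genes (x axis); circles are ADN tumors, squares ADC tumors, and colors mice. All 6 tumors lie below 0 for Ltbp4, Loxl1, Lox, Emilin1 and Fbln5, and the ADC tumor of mouse m335 lies below 0 for Eln and Mfap5 where the other 5 tumors lie above.

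Set side by side for each tumor kind, 4 of the 10 genes passed in ADN tumors against normal lungs (1 higher, 3 lower), where 7.53% of all genes passed (2.68% higher, 4.84% lower), and 1 passed in ADC tumors against normal lungs, lower, where 4.99% passed (1.01% higher, 3.98% lower). Both comparisons use the same normal lungs. Fbln5 fell by 1.73 ± 0.33 on the log2 scale in ADN tumors (adjusted p = 0.0223 by edgeR), against a change of -0.64 ± 0.31 in ADC tumors (adjusted p = 0.324). Under 17 alternatives its change ran from -2.1 to -1.4 in ADN tumors and passed in 13. In ADC tumors it ran from -0.84 to -0.37 and passed in 0. Ltbp4 fell in both, by 2.06 ± 0.37 in ADN tumors (adjusted p = 0.0178) and by 2.27 ± 0.38 in ADC tumors (adjusted p = 0.0167). The other calls in ADN tumors were Emilin1 (-0.99 ± 0.23, adjusted p = 0.0377) and Mfap5 (1.29 ± 0.31, adjusted p = 0.0430), beside -0.89 ± 0.22 (adjusted p = 0.0681) and 0.68 ± 0.33 (adjusted p = 0.320) in ADC tumors. Loxl1 was at -1.18 ± 0.30 in ADN tumors (adjusted p = 0.0537) and -1.33 ± 0.31 in ADC tumors (adjusted p = 0.0511).

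These calls depended on single mice. In ADN tumors none of the 10 genes passed without the ADN tumor of mouse m335 or without either library of mouse m368, where 0, 410 and 430 of all genes passed. The call of Ltbp4 in ADC tumors was lost without the ADC tumor (adjusted p = 0.0786) or the normal lung (0.0759) of mouse m378. Without the ADC tumor of mouse m335, 4 of the 10 genes passed in ADC tumors, Eln (2.21, adjusted p = 0.0485), Mfap5 (1.20, 0.0321), Emilin1 (-1.04, 0.0461) and Ltbp4. Over all 15106 genes then tested, 361 were higher and 706 lower, in place of 153 higher and 604 lower.

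No gene of the table passed when ADC tumors were set against ADN tumors (0% of all genes), and so 0 of the 10 did, by edgeR. DESeq2 called 0 of the 10 with 129 genes in all. At an unadjusted p under 0.05 by edgeR there was 1 of the 10. The share of all genes under it was not counted, so this count is no result about the 10. That one was Fbln5, with 59.6 ± 22.3 CPM in ADC tumors and 30.7 ± 13.4 CPM in ADN tumors (SD, n = 3 each). Its log2 difference was 1.08 with an adjusted p of 0.744 by edgeR. The 95% interval, not adjusted for the number of genes, ran from 0.172 to 1.996. The ADC tumor of mouse m335 had 82.5 CPM, against 58.3 and 38.0 CPM in the other ADC tumors. Under 17 alternatives the difference ran from 0.72 to 1.38 and passed in 0. For Ltbp4 the interval of the difference ran from -1.30 to 0.88, for Loxl1 from -1.03 to 0.74, and for Eln from -2.33 to 1.54. These intervals leave room for a difference in either direction.

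**Figure D3:**
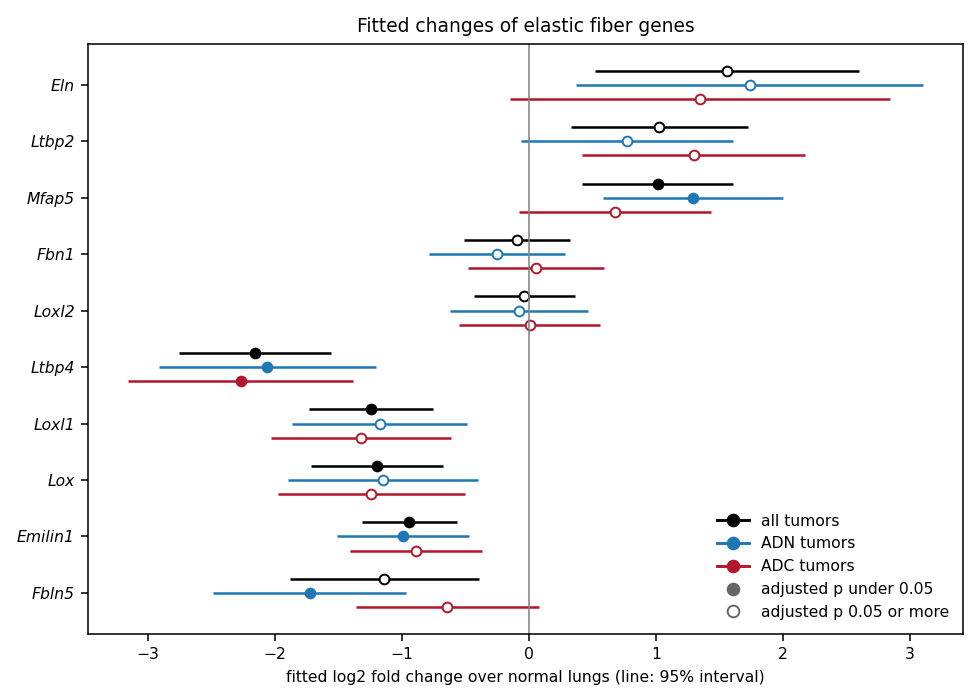
Fitted log2 fold change over normal lungs (x axis) of the 10 genes (y axis) for all tumors, ADN tumors and ADC tumors, with lines for the 95% interval; filled points have an adjusted p under 0.05. Ltbp4 is filled in all 3 comparisons, and the intervals of ADN and ADC tumors overlap for every gene.

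Levels of different genes are compared per kilobase of transcript. In tumors Eln led with 126.2 ± 58.0 CPM per kb (SD, n = 6), followed by Ltbp2 (27.4 ± 13.6), Mfap5 (24.9 ± 7.88), Emilin1 (15.8 ± 6.82), Ltbp4 (15.4 ± 4.73), Loxl1 (14.0 ± 3.23), Loxl2 (8.75 ± 3.12), Fbln5 (7.75 ± 3.92), Fbn1 (7.42 ± 3.60) and Lox (3.10 ± 0.77). In normal lungs Ltbp4 led with 66.9 ± 24.9 CPM per kb (SD, n = 5), followed by Eln (43.5 ± 18.3), Loxl1 (32.4 ± 11.2), Emilin1 (26.6 ± 6.17), Fbln5 (15.2 ± 1.68), Mfap5 (12.4 ± 4.70), Ltbp2 (11.1 ± 3.16), Loxl2 (8.15 ± 2.37), Lox (7.17 ± 1.78) and Fbn1 (6.71 ± 1.32). Neighbors in the order of the tumors differed by more than the larger SD of the pair between Eln and Ltbp2, Mfap5 and Emilin1, Loxl1 and Loxl2, and Fbn1 and Lox. In the order of the normal lungs this held between Emilin1 and Fbln5.

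Ratios within a library do not depend on how libraries are scaled. Elastin over its cross-linking enzymes, as Eln over the sum of Lox and Loxl1 in CPM per kb, was 4.34, 8.25 and 8.07 in ADN tumors, 2.45, 12.4 and 9.27 in ADC tumors, and 0.963, 0.505, 1.67, 1.42 and 1.01 in normal lungs. Every tumor was above every normal lung, the ADC tumor of mouse m335 by the least. Ltbp2 over Ltbp4 was 2.56, 0.819 and 0.903 in ADN tumors, 3.44, 1.82 and 1.49 in ADC tumors, and 0.140, 0.183, 0.208, 0.159 and 0.157 in normal lungs. Here too the tissues did not overlap, and both tumors of mouse m335 had the highest values. These ratios were chosen with the levels known and carry no test. Mfap5 over Fbn1 ran from 1.18 to 5.08 in tumors and from 1.39 to 2.45 in normal lungs, and Eln over Fbln5 from 2.59 to 49.6 in tumors and from 1.20 to 4.56 in normal lungs, so that 2 of the 4 ratios computed overlapped.

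**Figure D4:**
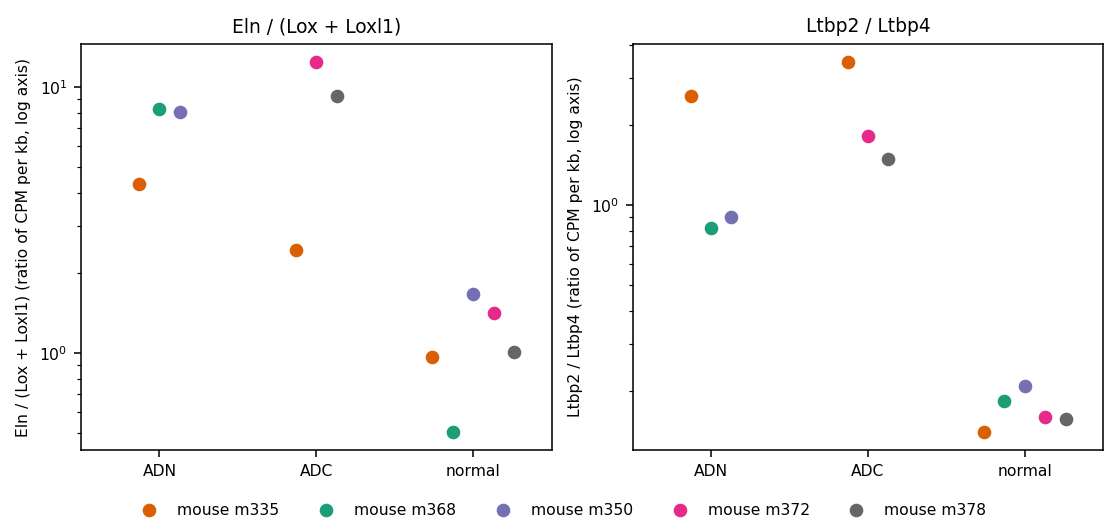
Ratio of Eln to the sum of Lox and Loxl1 (left) and of Ltbp2 to Ltbp4 (right), from CPM per kb on log y axes, in ADN tumors, ADC tumors and normal lungs (x axis), 1 point per library colored by mouse. All 6 tumors lie above all 5 normal lungs in both panels, with the ADC tumor of mouse m335 lowest of the tumors on the left (2.45) and highest on the right (3.44).

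Other genes of the elastic fiber were lower in tumors more often than higher, as were all genes. Of 24 further genes of microfibril and fiber assembly, all tested, 10 fell and 0 rose in tumors, with a median log2 fold change of -1.13, where 7.91% of all genes were lower and 3.68% higher, with a median of -0.03. Mfap4, which binds tropoelastin and fibrillin, had 117 ± 21.8 CPM in tumors and 635 ± 209 CPM in normal lungs (SD, n = 6 and n = 5), a change of -2.42 ± 0.20 (SE; adjusted p = 0.000564 by edgeR). Ltbp1, a relative of Ltbp4, changed by -1.85 ± 0.17 (adjusted p = 0.000684), and Efemp1, or fibulin-3, by -2.54 ± 0.32 (adjusted p = 0.00182). Mfap2, the partner gene of Mfap5, went the other way from it, with 11.3 ± 5.78 CPM in tumors and 38.5 ± 15.2 CPM in normal lungs (-1.90 ± 0.27, adjusted p = 0.00294). Adamtsl4, tied to fibrillin deposition, and Tnxb, a tenascin of elastic tissues, changed by -1.30 ± 0.19 (adjusted p = 0.00351) and -3.00 ± 0.55 (adjusted p = 0.00939). The proteoglycan genes Bgn and Dcn stood at -0.02 ± 0.29 and 0.33 ± 0.36 and did not pass.

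In a list of 18 genes for the maturation of the fiber, the supply of copper and TGF-beta, 17 were tested, 1 rose and 3 fell. Their median was -0.03, and of all genes 3.68% were higher and 7.91% lower. Tgfbr1, the kinase of the TGF-beta receptor, rose to 80.9 ± 10.4 CPM in tumors, against 45.7 ± 12.5 CPM in normal lungs (0.92 ± 0.19, adjusted p = 0.0163 by edgeR). Pcolce, an enhancer of procollagen cleavage, changed by -1.63 ± 0.17 (adjusted p = 0.000925), Itgb5, an integrin chain, by -0.84 ± 0.22 (adjusted p = 0.0395), and the ligand Tgfb2 by -1.02 ± 0.27 (adjusted p = 0.0411). Bmp1, the protease that activates prolysyl oxidase, stood at 126 ± 52.6 CPM in tumors and 74.2 ± 38.1 CPM in normal lungs (adjusted p = 0.11). Of 20 elastases and inhibitors 16 were tested, 0 rose and 1 fell, a share near the 7.91% of all genes, with a median of -0.14. The one was Timp3, a matrix-bound inhibitor of metalloproteases, at -0.77 ± 0.19 (adjusted p = 0.0294). Mmp12, the macrophage elastase, had 39.1 ± 24.3 CPM in tumors and 25.5 ± 18.7 CPM in normal lungs (adjusted p = 0.486).

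**Figure D5:**
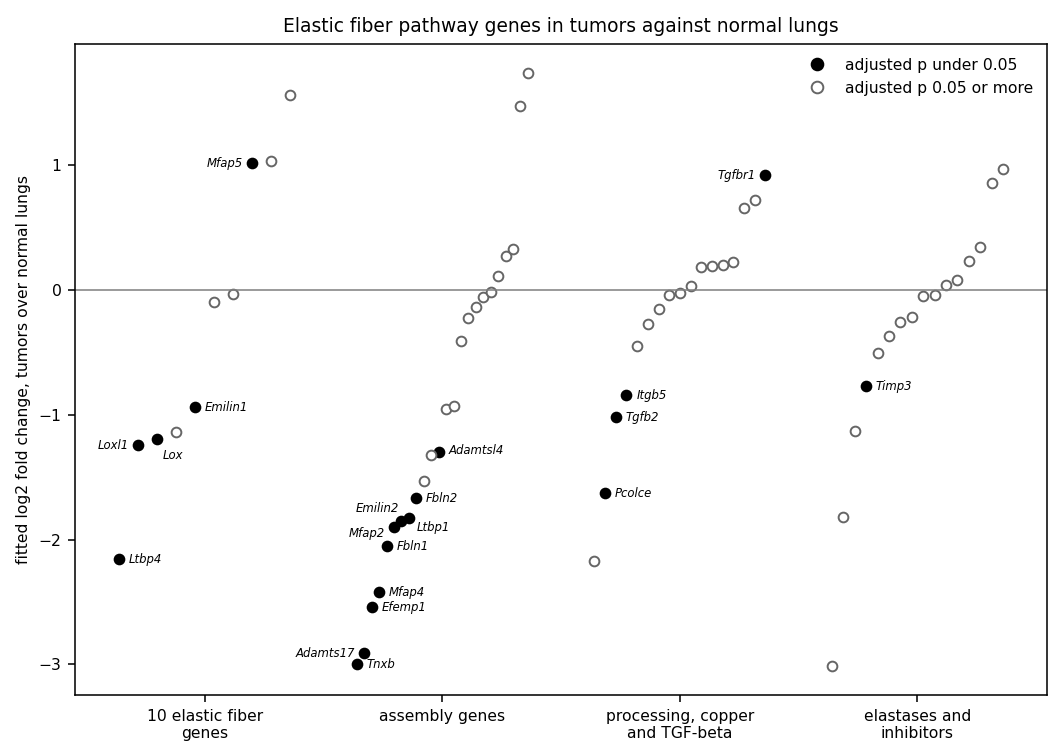
Fitted log2 fold change of tumors over normal lungs (y axis) for the 10 genes and 3 further lists (x axis), 1 point per gene, ordered by value within a list; filled and named points have an adjusted p under 0.05. Of the 24 assembly genes 10 are filled, all below 0, and Mfap5 and Tgfbr1 are the filled points above 0.

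Markers of the cells that make elastic fibers were lower in tumors as well. Beside the counts that follow, 7.91% of all genes were lower and 3.68% higher. In the fibroblast list 9 of 14 markers fell, 0 rose, and the summed level was 975.2 to 1755 CPM in tumors and 2952 to 4297 CPM in normal lungs. Most of that difference lay in Inmt, with 153 ± 68.0 CPM in tumors and 1570 ± 228 CPM in normal lungs. The collagen genes of that list did not pass: Col1a1 had 268 ± 141 CPM in tumors and 195 ± 89.7 CPM in normal lungs, Col1a2 171 ± 64.4 CPM in tumors and 189 ± 52.9 CPM in normal lungs, and Col3a1 330 ± 104 CPM in tumors and 381 ± 86.9 CPM in normal lungs. Of 12 smooth muscle and pericyte markers 6 fell (sum 284.9 to 532.2 CPM in tumors, 596 to 1124 CPM in normal lungs), and of 8 endothelial markers 7 fell (537.8 to 950.5 CPM in tumors, 2594 to 4171 CPM in normal lungs). Of 7 mesothelial markers tested 6 fell, and the sum was 190.3 to 708.9 CPM in tumors and 292.1 to 585.9 CPM in normal lungs. The marker that did not fall, Krt19, which is also an epithelial keratin, held much of that sum, with 288 ± 196 CPM in tumors and 160 ± 38.4 CPM in normal lungs. All markers of the fibroblast, smooth muscle and endothelial lists were detected in every library, and Wt1 of the mesothelial list was at 0 in the ADN tumor of mouse m368. Their part in the lower Ltbp4, Lox, Loxl1 and Emilin1 was not tested.

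Normal lungs also held markers of neighboring tissue. The counts called in tumors stand beside 7.91% of all genes lower and 3.68% higher. Skeletal muscle markers (5 of 7 lower) summed to 2.23 to 8.56 CPM in tumors and 7.89 to 666.7 CPM in normal lungs, and Tnnc2 was at 0 in 2 tumors. Adipocyte markers (2 of 5 tested lower) summed to 1.38 to 8.53 CPM in tumors and 29.0 to 532.9 CPM in normal lungs, with Adipoq at 0 in 4 tumors and in the normal lung of mouse m335. Thymus markers (0 of 3 tested called) summed to 10.3 to 90.0 CPM in tumors and 48.6 to 721.1 CPM in normal lungs. Cartilage markers stayed at 0.197 to 1.22 CPM in tumors and 0.124 to 0.454 CPM in normal lungs. Acan was at 0 in 5 of 6 tumors and in the normal lungs of mice m335 and m368. Alveolar type 2 markers were higher in 4 of 8. The normal lung with the most skeletal muscle, of mouse m335, also had the highest level of the normal lungs for every gene of the 10 except Eln and Lox, and the highest sums of fibroblast (4297 CPM) and smooth muscle markers (1124 CPM). With that lung left out the changes of Emilin1 and Fbln5 were -1.07 (adjusted p = 0.0132 by edgeR) and -1.23 (adjusted p = 0.115), and those of Ltbp4, Loxl1 and Lox are given above.

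The 10 genes did not follow 1 common course over the 11 libraries. Of their 45 pairs 23 had a positive Pearson correlation of log2 CPM and 3 were above 0.8, namely Ltbp4 with Loxl1 (0.888), Ltbp4 with Lox (0.883) and Fbn1 with Loxl2 (0.812). The lowest was Eln with Emilin1 (-0.727). Over the 6 tumors alone, Ltbp4 with Loxl1 stood at -0.115 and Ltbp4 with Lox at 0.618. Fbn1 with Loxl2 then stood at 0.813 and Eln with Emilin1 at -0.856. The gene most like each one was Cdr2l for Ltbp4 (0.993), Tspan15 for Fbln5 (0.973), Zfyve21 for Loxl1 (0.972), Wfdc2 for Mfap5 (0.969), Igfbp5 for Lox (0.967), Cnn3 for Emilin1 (0.967), Cbarp for Eln (0.962), Pawr for Ltbp2 (0.959), Tubb6 for Loxl2 (0.947) and Bcl10 for Fbn1 (0.935), among genes averaging 5 CPM or more. For none of the 10 was another of them the nearest gene. The best-placed other one ranked from 20 (Fbn1 for Loxl2) to 681 (Mfap5 for Ltbp2). With so many genes compared, a nearest gene outside the 10 was likely in any case and is no result about them. These are descriptions over 11 libraries of 5 mice that share depth and tissue.

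The position of some genes limits what their counts hold. The 3 rows of Lox are not read as separate forms, because the counts of a pair of them stood in a ratio of 0.626 in every library. Exons of Ltbp2 overlap D030025P21Rik on the opposite strand by 764 bases, and that gene stayed between 0 and 1.16 CPM. GENCODE also places opposite-strand exons over 2442 bases of Fbn1 (Gm9913), 244 of Loxl2 (Gm27177) and 212 of Eln (Gm30003). Whether the counting used strand is not given in the sources used here, and reads of such stretches may be counted for either gene.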

How the data were processed

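Per the labels' protocols, poly-A RNA of integrity number at least 7 was prepared with an Ion Total RNA-Seq kit and sequenced on the Ion Proton. The submitters' processing notes name mm10 (GRCm38) and Partek, Bowtie2 2.1.0 and STAR 2.4.1d; the role of each is not given in these sources. The deposited values are expected counts per transcript, not normalized by the authors. They were summed by gene name and rounded, and 78.4% to 86.2% of the gene sums per library were whole before rounding (within 0.01).

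Genes were filtered with filterByExpr (15175 kept, at least 99.89% of counts), scaled by TMM and tested by quasi-likelihood in edgeR 4.0.16 (robust, R 4.3.3) with the mouse as a replicate block. All 11 libraries entered each fit; ADN and ADC contrasts came from a 3-group fit. P-values are two-sided and adjusted by Benjamini-Hochberg over all genes tested (threshold 0.05). SE came from the F statistic. CPM per kb used GENCODE transcript lengths. The labels' mouse identifiers give the pairing; the deviations of tumors and own normal lungs correlated at 0.29, 0.12, 0.01, -0.06, -0.02 and 0.26. Correlations used log2 (CPM + 0.5). The fit was tested on simulated data. These held no difference between mice, and 100 genes per size of change were altered, fewer than were called in the real data. The shares that follow need not hold for the real fit. Of simulated 2-fold changes it recovered 19% in tumors, 5% in ADN tumors and 2% in ADC tumors against normal lungs. Of 4-fold changes it recovered 71%, 47% and 51%. Among the genes called there, 6.25%, 1.89% and 8.62% were false. ADC against ADN tumors was not simulated.

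The 10 genes and the lists were chosen with earlier results of these data known, so that counts over them are descriptions. All 10 genes are named, and of each pathway list up to 6 genes per direction with the lowest adjusted p; the most similar genes were taken by Pearson correlation. Col1a1, Col1a2, Col3a1, Bgn, Dcn, Bmp1, Mmp12, Inmt and Krt19 were named outside this rule, after their values were seen. Alternatives were no block, library totals, no filter, DESeq2 1.42.0, removal of Rn45s and hemoglobin genes, leaving out each library or mouse m335, and summing its tumors.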

Additional observations from a re-analysis of the deposited data

Results flagged for a closer look

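A gap test on the highest and lowest library of each of the 10 genes in tumors and in normal lungs, 20 groups in all, marked 2 values, where chance marks about 1 in 20 groups. The normal lung of mouse m335 had 568.0 CPM of Ltbp4, far from the other 4 normal lungs (256.1 to 332.6 CPM). Lox stood at 21.1 CPM in the ADN tumor of mouse m350, far from the other 5 tumors (11.5 to 14.6 CPM) and still below every normal lung.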

How the results depend on the processing

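In tumors against normal lungs Ltbp4 and Loxl1 passed under all 18 alternatives, Emilin1 and Lox under 17, Mfap5 under 7, Eln under 6, and Fbln5 and Ltbp2 under 5; Fbn1 and Loxl2 passed under 0. In all, 565 of the 690 values for single genes kept their direction and side of the threshold, and 43 gained and 46 lost the call. Another 36 changed sign, each in a comparison where that gene had not passed in the main fit. The cause of these changes was not tested.

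Without the replicate block, 1779 genes were called in ADN tumors, 1546 in ADC tumors (3 of the 10 genes) and 3 in ADC against ADN tumors, beside 1142, 757 and 0 in the paired fits. By DESeq2, 3286 genes were called in tumors (8 of the 10), 2931 in ADN tumors (7), 1858 in ADC tumors (5) and 129 in ADC against ADN tumors. In ADC tumors 4 of the 10 passed on library totals, with 922 genes in all, and 2 with no filter, with 741 in all. With no filter, ADC against ADN tumors had 5 genes called.

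Leaving out libraries gave 917 to 3377 genes in tumors (4 to 8 of the 10), 0 to 1972 in ADN tumors (0 to 5), 65 to 1067 in ADC tumors (0 to 4) and 0 to 2 in ADC against ADN tumors.

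Signs changed without the replicate block for Fbn1 (0.14) and Loxl2 (0.10) in tumors, Loxl2 (0.12) in ADN tumors, and Eln (0.16) and Loxl2 (-0.034) in ADC against ADN tumors, and on library totals for Fbn1 (-0.13) and Loxl2 (-0.18) in ADC tumors. With libraries left out, Fbn1 ran from -0.26 to 0.025 in tumors and -0.10 to 0.13 in ADC tumors. Loxl2 ran from -0.17 to 0.051 in tumors, -0.22 to 0.0023 in ADN tumors, -0.24 to 0.20 in ADC tumors and -0.11 to 0.27 in ADC against ADN tumors. In that last comparison Eln ran from -0.85 to 0.62, Emilin1 from -0.18 to 0.22, Lox from -0.36 to 0.24, Loxl1 from -0.35 to 0.31 and Ltbp4 from -0.50 to 0.39.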
